A study of Mus musculus with 2 samples.

Results

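Matrix metalloproteinases and their tissue inhibitors were followed across the cell types of the mouse periosteum, the membrane that covers bone. The 10 genes were taken by symbol from a fixed list, 6 proteases (Mmp2, Mmp3, Mmp11, Mmp13, Mmp14 and Mmp23) and 4 inhibitors (Timp1, Timp2, Timp3 and Timp4), out of 31253 genes in the count matrices. All 10 were found in both matrices. The cells came from femurs and tibias of mice aged 8 weeks, which carried the Prx1 Cre driver of limb mesenchyme and 1 copy of Ai9, a reporter that Cre switches on. The control library was Prx1 Cre; Ai9/+ and the other was Prx1 Cre; Ai9/+; Piezo1 fl/fl, in which Cre also removes a floxed stretch of Piezo1, a mechanically gated ion channel. Each genotype was 1 BD Rhapsody library of sorted Prx1-positive cells, without replicates, and the number of mice behind a library was not given in the sources used here. Genotype, animal, sort and library therefore cannot be told apart, and no test between libraries was possible. Cells were released with collagenase and dispase II, sorted and thawed before capture, steps that both libraries share.

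Matrix metalloproteinases are zinc-dependent enzymes, made as inactive precursors, that cut collagens, proteoglycans and other proteins of the extracellular matrix. Tissue inhibitors of metalloproteinases, the Timp proteins, bind the active site and block it, and Timp2 also takes part in the activation of the Mmp2 precursor by Mmp14 at the cell surface. In bone, Mmp13 is known from hypertrophic cartilage and osteoblast lineage cells, and Mmp14 is needed for normal skeletal growth.

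The control matrix held 6118 barcodes with a median of 3633.5 UMIs (unique molecular identifiers, each counting 1 captured transcript), and the Piezo1 fl/fl matrix held 7469 with a median of 3327; 50 barcodes occurred in both. After filters on genes, mitochondrial share and doublets, 4418 and 5084 cells were clustered, each library alone and without the 10 genes. The groups named Egfl6-led (795 control and 879 Piezo1 fl/fl cells) and Tnn-led (743 and 554 cells) had as their closest class the fixed marker lists for fibrous-layer and osteogenic-layer progenitors. Of these lists the study's text names only Prrx1, Cd200 and Pdgfra for the former population and Postn and Sp7 for the latter. Ctsk and Angptl7, which it also names, were not in them. Leading genes of the Egfl6-led groups included more tendon markers and those of the Piezo1 fl/fl Tnn-led group more mature osteoblast markers, so both are called by a leading gene. Fibroblast-like cells pooled 3 control and 4 Piezo1 fl/fl clusters, and tendon-like, lining-like, mural-like, endothelial-like and macrophage-like cells were found in both libraries. An osteoblast-like group (58 cells) and a perineurial-like group (33 cells) were separate in the control library only, and chondrocyte-like (27 cells) and blood-like (231 cells) groups in the Piezo1 fl/fl library only. Piezo1 itself was sparse: 33 UMIs in control Tnn-led cells (6.24 CPM, counts per 1000000 UMIs, with an exact 95% Poisson interval of 4.30 to 8.76) and 5 in Piezo1 fl/fl ones (1.46 CPM, 0.476 to 3.42). In endothelial-like cells it had 18 and 10 UMIs (28.1 and 17.4 CPM). These are tags of the 3′ end, which may lie outside the deleted stretch and would then not check the genotype.

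All 10 genes have positions in the GENCODE vM21 annotation of GRCm38. Mmp3 and Mmp13 lie on the same strand of chromosome 9, Mmp13 at chr9:7272514-7283331 and Mmp3 at chr9:7445822-7455975. Mmp2 lies at chr8:92827291-92853420, Mmp14 at chr14:54431612-54445364 and Mmp23 at chr4:155650655-155653384. Timp1 (chrX:20870166-20874735), Timp3 (chr10:86300372-86349506), Timp4 (chr6:115241892-115252205) and Mmp11 (chr10:75923222-75936496) overlap Syn1, Syn3, Syn2 and Chchd10 on the opposite strand, while Timp2 (chr11:118301069-118355740) overlaps Cep295nl on its own strand. Whether counting used the strand was not given in the sources used here, but these neighbours held few UMIs (Syn1 125 and 157, Chchd10 56 and 63, Cep295nl 67 and 86, Syn3 41 and 29, Syn2 38 and 30 in the control and Piezo1 fl/fl cells).

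The promoters of Mmp13, Mmp3 and Mmp14 are shown, the proteases with the largest control differences between Tnn-led and Egfl6-led cells, because 2 of them carry the AP-1 motif TGANTCA and 2 the RUNX motif ACCACA (or TGTGGT on the other strand). Each sequence is the 250 bases before the gene start, from RefSeq on GRCm38.p6, on the plus strand, with the motif matches in capitals.
Mmp13, chr9:7272264-7272513: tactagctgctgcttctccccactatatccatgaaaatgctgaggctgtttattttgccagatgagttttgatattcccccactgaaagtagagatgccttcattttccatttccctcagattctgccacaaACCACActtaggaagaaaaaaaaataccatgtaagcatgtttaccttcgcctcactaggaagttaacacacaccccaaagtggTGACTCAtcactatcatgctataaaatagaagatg
Mmp3, chr9:7445572-7445821: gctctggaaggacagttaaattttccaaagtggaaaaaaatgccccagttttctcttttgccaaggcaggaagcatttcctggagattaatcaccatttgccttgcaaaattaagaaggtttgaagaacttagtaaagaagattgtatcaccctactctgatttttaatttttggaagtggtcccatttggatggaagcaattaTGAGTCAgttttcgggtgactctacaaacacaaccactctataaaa
Mmp14, chr14:54431348-54431597: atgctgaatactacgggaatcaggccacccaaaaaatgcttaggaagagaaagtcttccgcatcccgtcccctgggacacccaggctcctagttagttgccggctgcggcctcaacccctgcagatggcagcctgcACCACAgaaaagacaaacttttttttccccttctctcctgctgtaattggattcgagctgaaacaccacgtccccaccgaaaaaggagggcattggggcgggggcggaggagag
Mmp13 held both motifs, AP-1 as TGACTCA starting 35 bases before the gene start and RUNX as ACCACA starting 118 bases before it. Mmp3 held AP-1 only, as TGAGTCA starting 46 bases before the start, and Mmp14 held RUNX only, starting 114 bases before it. Of 32851 promoters of this length, 6.75% held the AP-1 motif, 14% the RUNX motif and 1.01% both. Of the others, 1 of the 2 Mmp23 promoters held the RUNX motif, and neither motif was found in Mmp11 or in the 4 Timp promoters. No promoter entry matched Mmp2. A match describes these letters only, and binding was not measured.

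The genes differed in the cell types with the highest levels. Mmp13, Mmp14, Mmp23 and Mmp2 were highest in the Tnn-led cells or in the small osteoblast-like group beside them, Mmp3 in fibroblast-like cells, Timp4 in endothelial-like and mural-like cells, and Timp2 in tendon-like and Tnn-led cells, leaving aside the small perineurial-like group. Values are CPM, the UMIs of a gene summed over the cells of a type relative to all UMIs of that type, so each gene is compared with itself across types, never with another gene. A level is not a share of all transcripts: fibroblast-like cells, the most numerous, held 44.1% and 53.1% of Timp2 UMIs, and in the Piezo1 fl/fl library also 42.5% of Mmp2 and 44.4% of Mmp23 UMIs.

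**Figure D1:**
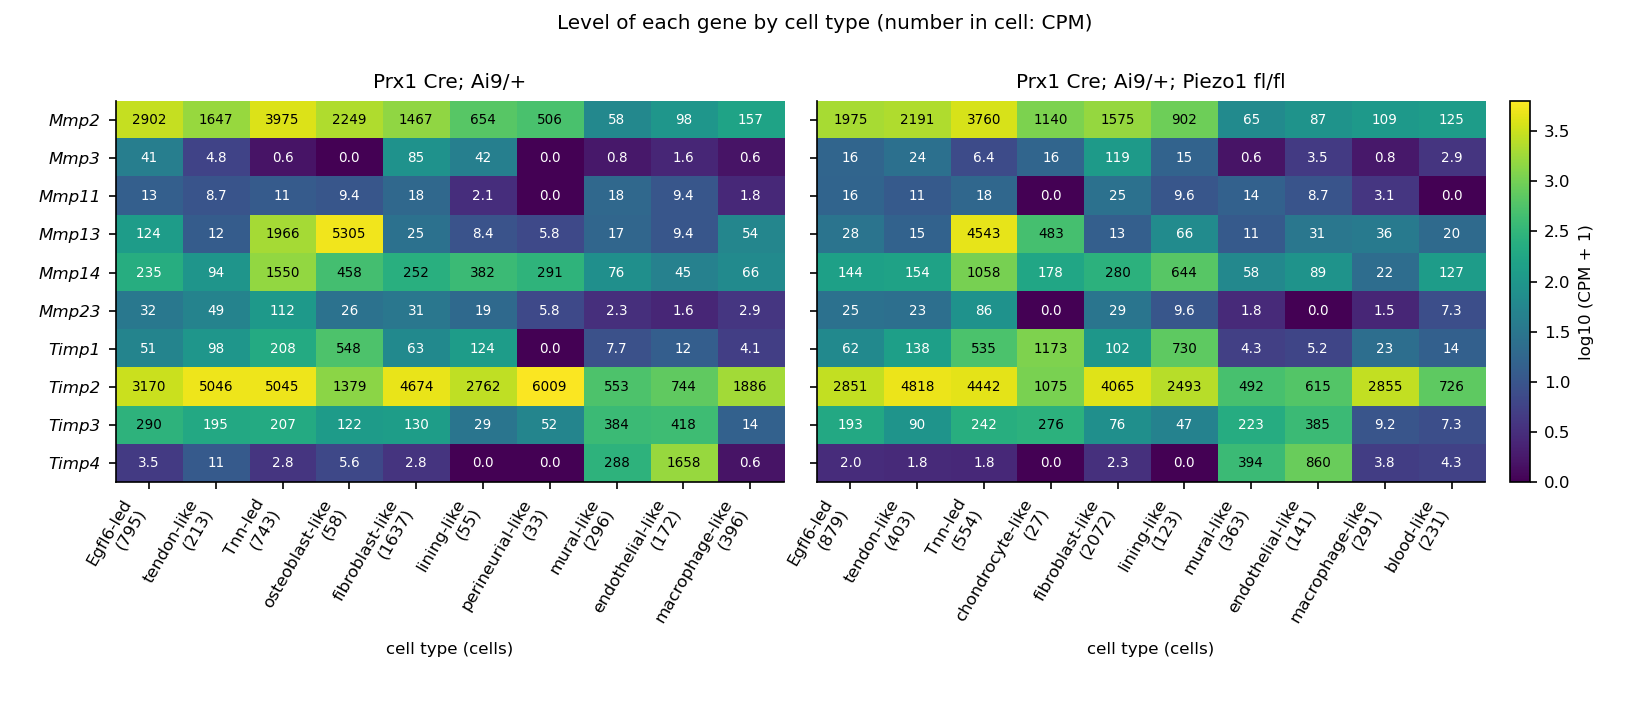
Level of the 10 genes (rows) in each cell type (columns, with the number of cells) in the control and Piezo1 fl/fl libraries. Numbers are CPM and the colour is log10(CPM + 1); Mmp13 stands out in osteoblast-like (5305) and Tnn-led cells (1966 and 4543), and Timp4 in endothelial-like cells (1658 and 860).

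Mmp13, collagenase 3, which cuts fibrillar collagen, was at 1966 CPM (1928 to 2004) in control Tnn-led cells and at 5305 CPM (5112 to 5504) in control osteoblast-like cells. In the Piezo1 fl/fl library it was at 4543 CPM (4472 to 4615) in Tnn-led cells. The next type down was Egfl6-led in the control library, at 124.5 CPM, and lining-like in the Piezo1 fl/fl library, at 66.1 CPM, leaving aside the 27 chondrocyte-like cells at 483 CPM. Tnn-led cells held 73.3% of all control Mmp13 UMIs and osteoblast-like cells 19.98%, and Tnn-led cells alone held 96.2% in the Piezo1 fl/fl library. After thinning each cell to 2500 UMIs, 38.3% of control (34.8% to 42.03%) and 59.6% of Piezo1 fl/fl Tnn-led cells (55.2% to 63.9%) had an Mmp13 UMI, against 49.8% and 64.3% unthinned. Endothelial-like cells, taken as a type that should lack the gene, stood at 4.24% and 7.45% thinned and 3.49% and 9.93% unthinned, with median depths of 3022 and 3126 UMIs against 5970 and 5131.5 in Tnn-led cells. Outside the Tnn-led, osteoblast-like, Egfl6-led and chondrocyte-like groups Mmp13 lay between 5.82 and 66.1 CPM, and most neighbours in that range did not differ beyond counting error.

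The Mmp13 transcripts were concentrated in few cells. Of the thinned Tnn-led cells, the 72 control cells with the most Mmp13 (1 in 10) held 80.6% of its UMIs and the 51 such cells of the Piezo1 fl/fl library held 59.1%, and 24 cells in each library held 50% of the unthinned UMIs. The same share for Mmp2 was 20.2% and 21.2% and for Mmp14 27.9% and 34.9%, so those genes were spread more evenly over the same cells. Timp1 was also concentrated, at 63.0% and 50.4%, on fewer UMIs (354 and 597 after thinning). Cells with at least 10 Mmp13 UMIs after thinning made up 11.7% of control and 25.3% of Piezo1 fl/fl Tnn-led cells. In the control osteoblast-like group 3 cells held 50% of the Mmp13 UMIs, so its level rests on those cells. In some other groups a few cells set the value: 5 of 795 control Egfl6-led cells held 63.6% of the 571 Mmp13 UMIs there, and 1 of 123 Piezo1 fl/fl lining-like cells held 46 of 69.

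**Figure D2:**
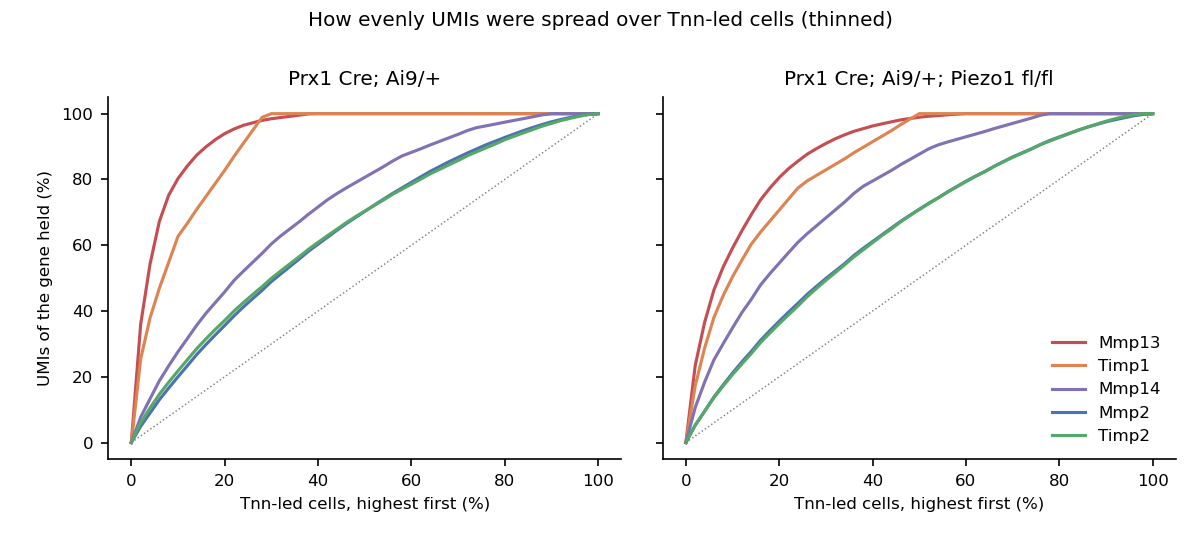
Cumulative share of a gene's UMIs (vertical axis, %) held by Tnn-led cells ranked from the highest (horizontal axis, % of thinned cells), by library, with the dotted diagonal for equal shares. Within each library the Mmp13 curve climbs steepest, with 80.6% of UMIs in the highest 72 of 712 control cells and 59.1% in the highest 51 of 510 Piezo1 fl/fl cells.

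Mmp14, the membrane-type protease MT1-MMP that cuts pericellular collagen and activates Mmp2, was also highest in Tnn-led cells, at 1550 CPM (1517 to 1584) in the control and 1058 CPM (1024 to 1093) in the Piezo1 fl/fl library. Unlike Mmp13 it was seen in most of these cells, 89.5% and 77.3% after thinning. Osteoblast-like cells stood at 459 CPM, lower than the Tnn-led cells by 3.38-fold (2.98 to 3.86), so Mmp13 and Mmp14 ranked these groups in opposite order. Lining-like cells, which carry synovial lining markers such as Prg4, were next with 382 and 644 CPM, followed by fibroblast-like cells with 252 and 280 CPM. Mural-like, endothelial-like and macrophage-like cells lay between 22.2 and 88.8 CPM. Osteoblast-like and lining-like control cells did not differ beyond counting error, nor did control fibroblast-like and Egfl6-led cells.

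Mmp2, gelatinase A, which cuts denatured collagen and basement membrane, was widespread in mesenchymal cells. It was at 3975 and 3760 CPM in Tnn-led cells and at 2902 and 1975 CPM in Egfl6-led cells. The control osteoblast-like group had 2249 CPM, tendon-like cells 1647 and 2191 CPM and fibroblast-like cells 1467 and 1575 CPM, while mural-like cells stood at 58.3 and 64.7 CPM. Every pair of neighbours in the control order differed beyond counting error, and the order of Egfl6-led and tendon-like cells was exchanged in the Piezo1 fl/fl library. Mmp23, a small protease without the usual hemopexin domain, was also highest in Tnn-led cells, with 112 CPM (103 to 121) and 86.1 CPM (76.5 to 96.5). Tendon-like cells had 49.2 and 23.1 CPM of Mmp23, and mural-like, endothelial-like and macrophage-like cells had at most 2.93 CPM.

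Mmp3, stromelysin 1, which cuts proteoglycans and activates other metalloproteinases, was highest in fibroblast-like cells and near 0 in Tnn-led cells. It was at 84.8 CPM (79.0 to 90.9) in control and 119 CPM (113 to 125) in Piezo1 fl/fl fibroblast-like cells, at 41.0 and 16.1 CPM in Egfl6-led cells and at 0.567 CPM (3 UMIs) and 6.44 CPM (22 UMIs) in Tnn-led cells. The osteoblast-like group had 0 UMIs, which allows up to 5.61 CPM at 3 counts. Within fibroblast-like cells the control clusters spanned 62.0 to 99.5 CPM. The Piezo1 fl/fl clusters spanned 6.57 CPM in the Sema3e-led one to 296 CPM in the one led by Serpina3n, a serine protease inhibitor. The clusters led by Myoc and Gdf10 lay between, at 77.9 and 220.4 CPM. The summed CPM of 11 immediate early and heat shock genes, which respond to cell handling, was 5357 in the Sema3e-led, 18027 in the Myoc-led, 13046 in the Gdf10-led and 28335 in the Serpina3n-led cluster. It was thus lowest and highest in the same clusters as Mmp3, while the Myoc-led and Gdf10-led clusters stood in the opposite order. In the control fibroblast-like clusters, where Mmp3 spanned 62.0 to 99.5 CPM, the sum spanned 9949 to 21533 CPM. Its part in the Mmp3 levels was not tested. After thinning, 6.501% of control and 10.1% of Piezo1 fl/fl fibroblast-like cells had an Mmp3 UMI (10.45% and 14.6% unthinned), against 0.848% and 1.06% of endothelial-like cells (0.581% and 1.42%). Median depths were 4824 and 5295 UMIs in fibroblast-like cells.

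Mmp11, stromelysin 3, was low throughout, at most 24.7 CPM (22.1 to 27.6, Piezo1 fl/fl fibroblast-like cells). Its control values in mural-like and fibroblast-like cells, 18.4 and 18.1 CPM, did not differ beyond counting error, and no perineurial-like, chondrocyte-like or blood-like cell had a UMI, which allows up to 17.5, 12.2 and 2.18 CPM.

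Timp1, a secreted inhibitor known to be induced by inflammation and growth factors, was high in osteoblast-like, Tnn-led and lining-like cells. In the control library it was at 548 CPM (487 to 615) in osteoblast-like, 208 CPM (196 to 220) in Tnn-led and 124 CPM (94.4 to 160) in lining-like cells. In the Piezo1 fl/fl library it was at 1173 CPM in the 27 chondrocyte-like cells, 730 CPM (680 to 784) in lining-like and 535 CPM (511 to 560) in Tnn-led cells. Endothelial-like, mural-like and macrophage-like cells had between 4.11 and 22.9 CPM, and 17 of the 30 UMIs behind the highest of these values were in 1 Piezo1 fl/fl macrophage-like cell.

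Timp2, the inhibitor that also pairs with Mmp14 in Mmp2 activation, was found in every mesenchymal type. It was at 5046 and 4818 CPM in tendon-like, 5045 and 4442 CPM in Tnn-led and 4674 and 4065 CPM in fibroblast-like cells. The 33 perineurial-like cells had 6009 CPM (5648 to 6387). Tendon-like and Tnn-led control cells did not differ beyond counting error (1.00-fold, 0.973 to 1.03). The osteoblast-like group, at 1379 CPM, stood below the Tnn-led, tendon-like, fibroblast-like, Egfl6-led and lining-like cells of its library, and macrophage-like cells, at 1886 and 2855 CPM, lay above endothelial-like (745 and 615 CPM) and mural-like cells (553 and 492 CPM).

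Timp3, the inhibitor that binds to the matrix itself, was shared by vascular and mesenchymal cells. It was at 418 and 385 CPM in endothelial-like, 384 and 223 CPM in mural-like, 290 and 193 CPM in Egfl6-led and 207 and 242 CPM in Tnn-led cells. Endothelial-like and mural-like control cells did not differ beyond counting error, nor did Tnn-led and mural-like Piezo1 fl/fl cells.

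Timp4, an inhibitor known from heart and vessels, was almost restricted to the vascular groups. Endothelial-like cells had 1658 CPM (1559 to 1760) in the control and 860 CPM (786 to 940) in the Piezo1 fl/fl library, and mural-like cells 288 CPM (260 to 319) and 394 CPM (364 to 426). Endothelial-like cells held 69.7% and mural-like cells 24.7% of control Timp4 UMIs, against 41.2% and 53.9% in the Piezo1 fl/fl library. Other named types had at most 11.1 CPM, the next below those groups being control tendon-like cells, and both lining-like groups had 0 UMIs, which allows up to 6.31 and 2.87 CPM. After thinning, 55.1% and 44.7% of endothelial-like cells had a Timp4 UMI, against 0.332% and 0.435% of macrophage-like cells with median depths of 3678.5 and 3741 UMIs, and unthinned shares were 62.8% and 53.9% against 0.253% and 1.37%.

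The Tnn-led cells were set against the Egfl6-led cells, the groups whose closest classes were the 2 progenitor marker lists. The 8 markers of the fibrous-layer list summed to more in tendon-like cells (26051 and 22987 CPM) than in Egfl6-led cells (13783 and 13681 CPM). In the control library 5 of the 10 genes differed by at least 2-fold, beside 20.9% of all 11274 genes with at least 20 UMIs in both groups together. Mmp13 was 15.8-fold (log2 3.98, exact conditional 95% interval 3.86 to 4.11), Mmp14 6.61-fold, Timp1 4.10-fold and Mmp23 3.47-fold higher in Tnn-led cells. Mmp3 was lower there, log2 -6.18 (-8.47 to -4.61) on 3 against 188 UMIs. In the Piezo1 fl/fl library the same 4 genes were higher and Mmp3 was lower, 5 of 9 genes tested, beside 15.8% of all genes. The folds there were 163 for Mmp13, 7.34 for Mmp14, 8.62 for Timp1 and 3.44 for Mmp23. The large Mmp13 fold had the 112 UMIs of Egfl6-led cells as its base, 50 of them in 1 cell. That base, 27.8 CPM, did not differ beyond counting error from the endothelial-like level of 31.35 CPM. Tendon-like, fibroblast-like and mural-like cells of that library were lower, at 14.79, 12.91 and 10.98 CPM. Whether the base is background was not tested. The Mmp3 difference of that library went under 2-fold in 2 alternatives (log2 -0.27 and -0.70). The median log2 of the genes was 0.56 and 0.93, beside -0.24 and -0.11 over all genes tested.

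Fibroblast-like over Egfl6-led cells gave 3 of 10 genes past 2-fold in each library, beside 20.9% and 19% of all genes. Mmp3 was 2.07-fold and 7.36-fold higher in fibroblast-like cells, and Timp3 2.22-fold and 2.53-fold lower, as was Mmp13, whose value here rests on few cells. Endothelial-like over mural-like cells gave 1 of 7 genes in the control library, Timp4 (5.75-fold higher), beside 37.8% of all genes. In the Piezo1 fl/fl library they gave 2 of 7, Timp4 (2.18-fold) and Mmp13 (2.86-fold on 18 UMIs in each type), beside 35.2%. Endothelial-like cells, taken above as a type that should lack Mmp13, were thus not the lowest for it in that library. Timp4 was past 2-fold under every alternative run in both libraries. The Mmp3 difference between fibroblast-like and Egfl6-led control cells went under 2-fold in 5 of 12 alternatives, to between log2 0.58 and 1.00, and Mmp13 in the Piezo1 fl/fl library in 6 of 12, turning in 1 of them to log2 0.09. With types set cell by cell Mmp13 in the control library was at log2 -0.04 and Timp3 in the Piezo1 fl/fl library at -0.57, both under 2-fold.

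The balance of inhibitor to protease transcripts was described by ratios of UMIs within a type, which are compared between types only, since capture differs from gene to gene. Summed Timp UMIs over summed Mmp UMIs were 0.255 (0.239 to 0.273) in osteoblast-like cells, 0.717 and 0.551 in Tnn-led cells and 1.05 and 1.41 in Egfl6-led cells. The ratio was 2.59 and 2.08 in fibroblast-like, 2.95 and 2.09 in tendon-like, 7.15 and 7.42 in mural-like and 17.1 and 8.5 in endothelial-like cells, and macrophage-like cells stood at 6.75 and 16.7. The osteogenic groups had the lowest ratios in either library, and their intervals, which cover counting error only, did not overlap those of other types. The inhibitors behind the sum differed between types: control endothelial-like cells had 1062 Timp4 and 477 Timp2 UMIs, and control Tnn-led cells 15 and 26683. Mmp13, concentrated in few cells, made up much of the protease sum: in osteoblast-like cells it was 2835 of 4301 protease UMIs, 1872 of them in 5 cells. Without Mmp13, an alternative chosen after seeing the data, the ratio was 0.749 (0.692 to 0.81) in osteoblast-like cells, 0.967 (0.952 to 0.983) and 1.06 (1.04 to 1.08) in Tnn-led cells and 1.09 (1.07 to 1.11) and 1.43 (1.39 to 1.47) in Egfl6-led cells, so the order of these groups stayed and the gaps narrowed. Timp2 to Mmp14 was low in osteoblast-like (3.01) and Tnn-led cells (3.25 and 4.20) and Piezo1 fl/fl lining-like cells (3.87, 3.55 to 4.22). It was highest in tendon-like cells in the control library (53.9, against 31.4 in the Piezo1 fl/fl library) and in macrophage-like cells in the Piezo1 fl/fl library (128.9 on 29 Mmp14 UMIs, against 28.7 in the control). Of the types with UMIs of both, Timp1 to Mmp3 was lowest in fibroblast-like cells, at 0.741 (0.665 to 0.826) and 0.859 (0.797 to 0.926).

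**Figure D3:**
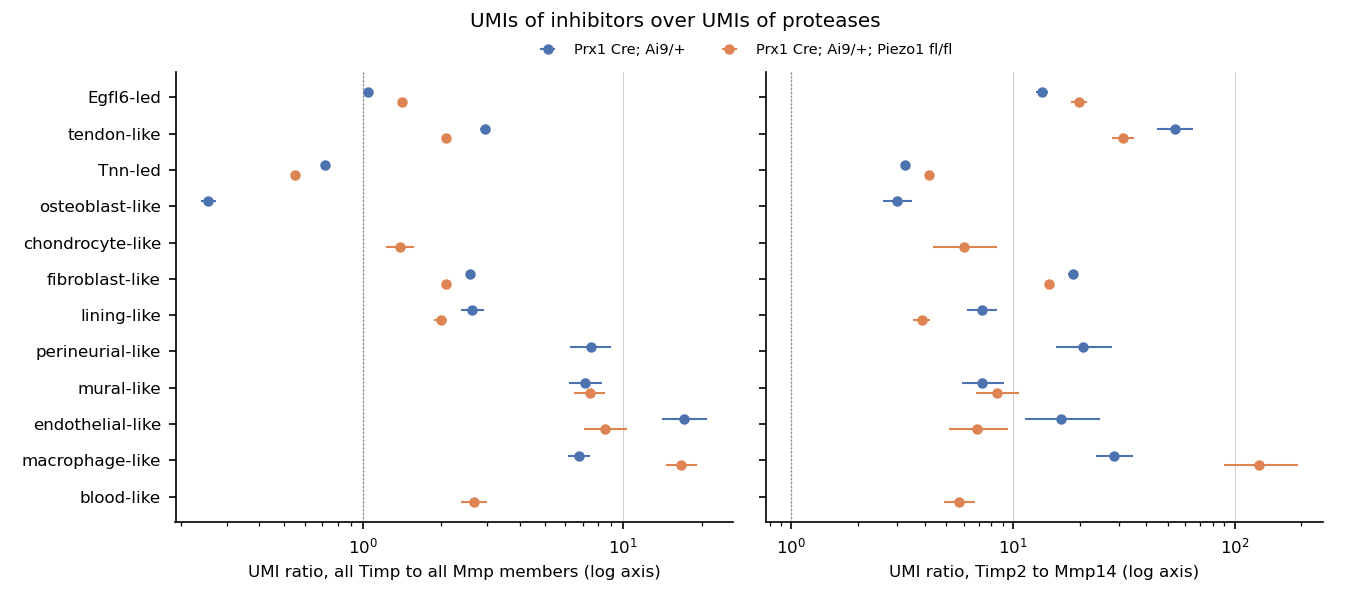
Ratio of summed Timp to summed Mmp UMIs (left panel) and of Timp2 to Mmp14 UMIs (right) in each cell type, on log axes, with exact 95% intervals for counting error, control in blue and Piezo1 fl/fl in orange. Osteoblast-like (0.255) and Tnn-led cells (0.717 and 0.551) lie farthest left in the left panel, and control endothelial-like (17.1) and Piezo1 fl/fl macrophage-like cells (16.7) lie farthest right there.

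Between the libraries, Tnn-led cells differed by at least 1.5-fold for 5 of the 10 genes, beside 18.3% of 10738 genes. Mmp13 was 2.31-fold higher in the Piezo1 fl/fl cells (log2 1.21, 1.17 to 1.24), Timp1 2.58-fold higher (log2 1.37, 1.26 to 1.47) and Mmp11 1.60-fold higher (61 against 59 UMIs). Mmp3 was higher on 22 against 3 UMIs (ratio 11.4, log2 3.51, 1.77 to 5.89), and Timp4 was lower on 6 against 15 UMIs with an interval that included 0 (log2 -0.69, -2.34 to 0.76). Mmp2 (log2 -0.08), Timp2 (-0.18), Timp3 (0.22), Mmp23 (-0.38) and Mmp14 (-0.55, -0.61 to -0.50) stayed within 1.5-fold. Across the alternatives Mmp13 stayed between log2 0.83 and 1.36 and Timp1 between 1.14 and 1.53, whereas Mmp3, Mmp11 and Timp4 each went under 1.5-fold or under the minimum of 20 UMIs in some, and the count was 2 with doublets kept, with both libraries clustered together or after thinning.

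Mature osteoblast markers differed between the Tnn-led groups in the same direction as Mmp13 and Timp1. The 58 control osteoblast-like cells, at 51060 CPM of these markers, are left out of the control sum, levels and ratios that follow. No such group was set apart in the Piezo1 fl/fl library, so the 2 Tnn-led groups are not alike in make-up. The 7 mature osteoblast markers, none of them at 0, summed to 5275 CPM in control and 13299 CPM in Piezo1 fl/fl Tnn-led cells. Ibsp, a mineral-binding sialoprotein of osteoblasts, was at 2802 and 6354 CPM, whereas Tnn, a tenascin, was at 7665 and 4085 CPM. Mmp13 UMIs per Ibsp UMI were 0.702 (0.684 to 0.719) and 0.715 (0.7 to 0.730), with overlapping intervals, while Mmp13 UMIs per Tnn UMI were 0.257 and 1.11. Timp1 UMIs per Ibsp UMI were 0.0741 (0.0696 to 0.0788) and 0.0842 (0.0802 to 0.0883). When the separate control osteoblast-like cells were counted with the control Tnn-led cells, Mmp13 was 2.00-fold and Timp1 2.24-fold higher in the Piezo1 fl/fl library, and 5 of 10 genes were past 1.5-fold beside 17.7% of all genes. The marker sums and the ratios to Ibsp and Tnn were not pooled in this way.

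Tnn-led cells were also split by whether they held an Ibsp UMI after thinning. Among cells without one (294 control and 215 Piezo1 fl/fl cells) Mmp13 was at 412 CPM (367 to 461) and 1047 CPM (963 to 1138). Among cells with one (418 and 295 cells) it was at 3345 CPM (3234 to 3457) and 5957 CPM (5782 to 6135), so within each library it was higher in Ibsp-bearing cells and within each class it was higher in the Piezo1 fl/fl library. Mmp14 was lower in the Piezo1 fl/fl library in both classes, at 1490 and 807 CPM without and 1432 and 1106 CPM with an Ibsp UMI. Timp1 was at 132 (107 to 161) and 184 CPM (150 to 224) without an Ibsp UMI, where the intervals overlapped, and at 246 (217 to 278) and 675 CPM (617 to 737) with one. A class without an Ibsp UMI still holds cells whose Ibsp was not captured, and how far osteoblast content accounts for the difference was not tested.

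**Figure D4:**
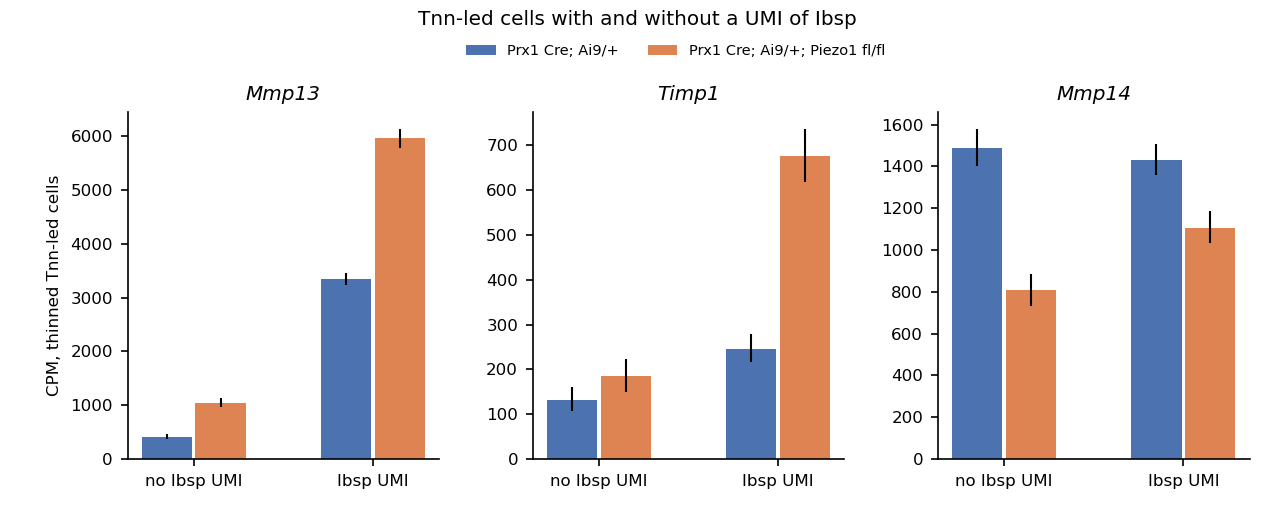
CPM (vertical axis, from 0) of single genes in thinned Tnn-led cells without and with an Ibsp UMI, control and Piezo1 fl/fl side by side, with exact 95% Poisson intervals. Mmp13 is higher in Ibsp-bearing cells of both libraries (3345 and 5957 against 412 and 1047 CPM), whereas Mmp14 stands at 1432 and 1106 against 1490 and 807 CPM.

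At the finer clustering resolution of 0.8, the control clusters nearest the osteogenic list were one of 506 cells with Ibsp at 2243, Mmp13 at 1606 and Mmp14 at 1673 CPM and one of 292 cells with Ibsp at 7094, Mmp13 at 3800 and Mmp14 at 945 CPM. Those of the Piezo1 fl/fl library had 383 cells with Ibsp at 8596, Mmp13 at 5839 and Mmp14 at 1250 CPM and 177 cells with Ibsp at 260, Mmp13 at 1002 and Mmp14 at 532 CPM. In both libraries the cluster richer in Ibsp was richer in Mmp13, but Mmp14 was lower in it in the control and higher in it in the Piezo1 fl/fl library. The clusters do not match between libraries, since the control cluster of 292 cells took in all 58 osteoblast-like cells, in which Mmp14 was at 459 CPM, and no such group was set apart in the Piezo1 fl/fl library. How far those cells bear on the Mmp14 order was not tested.

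In Egfl6-led cells 5 of 10 genes were lower by at least 1.5-fold in the Piezo1 fl/fl library and none was higher, beside 19.4% of all genes either way. Mmp3 was 2.54-fold lower (16.1 against 41.0 CPM), Mmp14 1.63-fold lower (144 against 235 CPM) and Timp3 1.501-fold lower (193 against 290 CPM). Mmp14 went under 1.5-fold in 3 alternatives (log2 -0.19 to -0.09) and Timp3 in 5 (log2 -0.58 to -0.55). Timp4 rested on 8 and 16 UMIs with an interval that included 0. Mmp13 was lower, log2 -2.16, but its direction turned under 3 other ways of setting the cell types (log2 0.15 to 0.74), with most of its UMIs in 5 cells of each library. The Piezo1 fl/fl Mmp13 level of 27.8 CPM did not differ beyond counting error from that of endothelial-like cells, though fibroblast-like cells were lower, at 12.91 CPM. Mmp2, at 1975 against 2902 CPM, was just within 1.5-fold (1.47).

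Fibroblast-like cells (control clusters led by Cxcl14, Pi16 and Clec3b, Piezo1 fl/fl clusters led by Myoc, Sema3e, Serpina3n and Gdf10) gave 3 of 10 genes beside 13.9% of all genes. Timp1 was 1.62-fold higher and Timp3 1.71-fold lower in the Piezo1 fl/fl library, and Mmp13 was 1.95-fold lower on 165 and 235 UMIs, 127 of the control UMIs in 5 of 1637 cells. That Mmp13 difference went within the fold in 4 of 12 alternatives, in 2 of them with the direction turned (log2 0.36 and 0.17). With types set cell by cell Timp3 was at log2 -0.54, just within the fold. Mmp3 was 1.40-fold higher (log2 0.48, 0.36 to 0.61), within the fold used. Tendon-like cells gave 4 of 9 genes beside 25.3%. Mmp14 was 1.64-fold and Mmp3 5.15-fold higher (53 against 6 UMIs, 37 of the 53 in 5 of 403 cells), and Mmp23 2.13-fold and Timp3 2.17-fold lower. The Mmp3 direction turned under 2 alternatives (log2 -0.34 and -0.77) and Mmp14 went within the fold in 3 of 12 (log2 0.57, 0.30 and -0.005), while Timp3 was at log2 -0.48 with types set cell by cell.

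Lining-like cells, 55 and 123 in number, gave 5 of 7 genes beside 28.5%. Timp1 was 5.89-fold higher in the Piezo1 fl/fl library (log2 2.56, 2.18 to 2.97), with UMIs in 103 of 123 cells against 25 of 55, and Mmp14 was 1.68-fold higher (644 against 382 CPM), though within the fold in 2 alternatives (log2 0.51 and 0.56). Mmp3 was 2.74-fold lower, with all 20 control UMIs in 3 cells, and was within the fold with types set cell by cell (log2 -0.54). Mmp13 (69 against 4 UMIs) and Timp3 (49 against 14 UMIs) were higher, but both turned under alternatives, Mmp13 to log2 -3.02, -0.51 and -2.02 and Timp3 to between -1.59 and -0.09 in 4 of the 6 alternatives that ended its call.

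Endothelial-like cells gave 3 of 6 genes beside 23.6%: Timp4 was 1.93-fold lower in the Piezo1 fl/fl library (log2 -0.95, -1.10 to -0.79), Mmp14 1.96-fold higher on 51 against 29 UMIs and Mmp13 3.35-fold higher on 18 against 6 UMIs. Endothelial-like cells were taken above as a type that should lack Mmp13. In the Piezo1 fl/fl library, however, mural-like and fibroblast-like cells were lower, at 10.98 and 12.91 CPM against 31.35 CPM. What these few endothelial-like UMIs stand for was not tested. Mural-like cells gave 2 of 7 beside 15.3%, with Timp3 1.72-fold lower and Mmp13 lower on 18 against 22 UMIs with an interval that included 0 and within the fold in 3 alternatives, while Timp4 was 1.37-fold higher there, within the fold used. In mural-like cells the Timp3 call held at every alternative log2 value, as did the endothelial-like differences in Timp4 and Mmp14. The endothelial-like Mmp14 call, on 51 and 29 UMIs, falls below the alternative minimum of 100 UMIs. Macrophage-like cells gave 4 of 6 beside 22.2%. Timp2 was 1.51-fold higher (2855 against 1886 CPM), Mmp14 2.97-fold lower (29 against 112 UMIs), Timp1 higher on 30 against 7 UMIs, 17 of them in 1 cell, and Timp3 lower on 12 against 24 UMIs with an interval that included 0. Each of these 4 calls went under 1.5-fold in 1 or more alternatives, Mmp14 to log2 -0.11 and Timp2 to 0.07 with both libraries clustered together.

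Read by gene over the 8 shared types, Timp1 lay above the control level in 6 of 6 types tested, by log2 0.295 to 2.56, and past 1.5-fold in 4. Timp3 was past 1.5-fold lower in 5 of 8 types and higher in 1. Of these Timp3 calls only the lower one in mural-like cells held at every alternative log2 value. Mmp2 was within 1.5-fold in all 8 types, and Timp2 was below the control level in 7 of 8, by at most log2 -0.28, and past 1.5-fold only in macrophage-like cells, upwards. All these comparisons share the same pair of libraries and are not independent of each other.

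**Figure D5:**
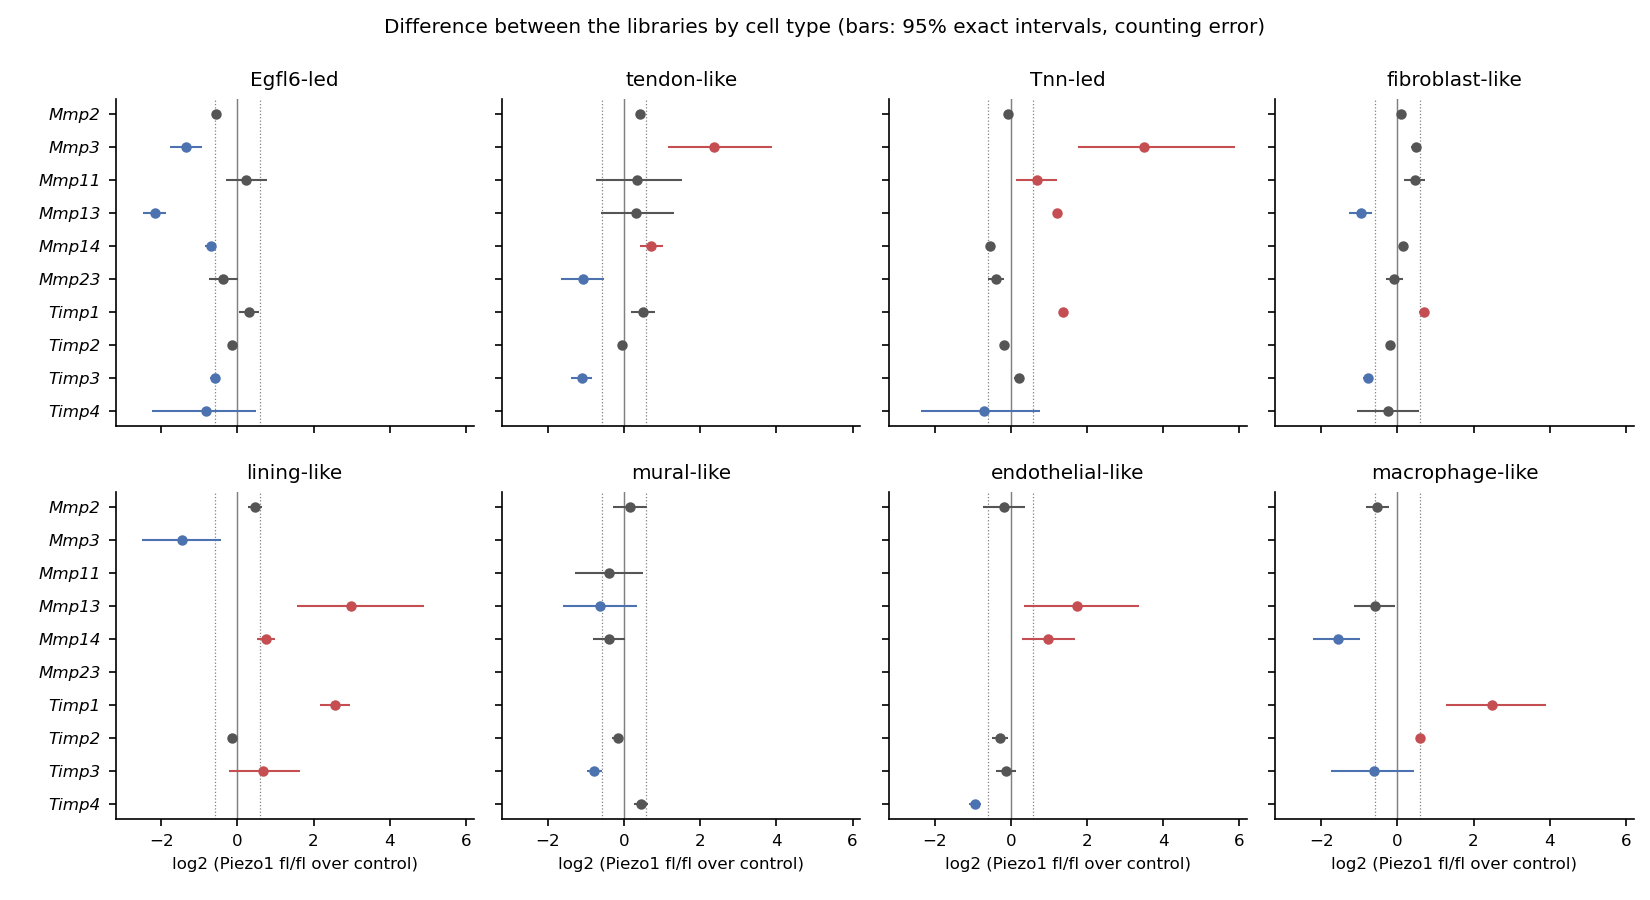
Log2 of the Piezo1 fl/fl over the control level for each gene (rows) in the 8 shared cell types (panels), with exact 95% conditional intervals for counting error. Dotted lines mark 1.5-fold, red and blue points lie past it upwards and downwards, and genes with fewer than 20 UMIs in both libraries together are left out; Timp1 lies right of 0 in each panel that shows it.

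The other proteases and regulators of the pathway were taken from 4 lists. Of 17 other metalloproteinase genes, 16 were in the matrices and 3 reached 100 UMIs in control cells. Mmp9, gelatinase B, was highest in macrophage-like cells of the control (200 CPM) and in blood-like cells of the Piezo1 fl/fl library (816 CPM). Mmp16, another membrane-type protease, was highest in osteoblast-like (198 CPM) and lining-like cells (196 CPM), and Mmp19 in fibroblast-like (28.2 CPM) and lining-like cells (33.5 CPM). Of the Adamts proteases, Adamts1, which cuts proteoglycans, was highest in mural-like cells (1266 and 1350 CPM), as was Adamts15 (40.7 and 55.5 CPM), while Adamts3, a procollagen peptidase, peaked in control tendon-like (68.3 CPM) and Piezo1 fl/fl Egfl6-led cells (19.6 CPM). Adamts8 peaked in control mural-like (27.6 CPM) and Piezo1 fl/fl tendon-like cells (63.3 CPM).

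Among Adam genes, Adam12, a membrane-bound protease, was highest in Tnn-led cells of both libraries (226 and 126 CPM), beside Mmp13 and Mmp14. Adam8 was highest in macrophage-like and blood-like cells (71.0 and 381 CPM), Adam23 in tendon-like and lining-like cells (51.6 and 41.2 CPM) and Adam33 in tendon-like and macrophage-like cells (91.3 and 80.2 CPM). Among the genes of activation and clearance, Fap, a membrane serine protease that cuts collagen fragments, was highest in osteoblast-like (988 CPM) and Tnn-led cells (918 CPM). Plau, the urokinase that starts plasmin formation, was highest in fibroblast-like (239 CPM) and blood-like cells (176 CPM), Pcsk5, a proprotein convertase, in Egfl6-led cells (132 and 105 CPM) and Pcsk6, another convertase, in lining-like cells (2226 and 1490 CPM).

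Tnn-led over Egfl6-led, 3 of 12 Adamts genes tested were past 2-fold higher and 2 lower in the control library, and 2 and 4 of 12 in the Piezo1 fl/fl library, beside 20.9% and 15.8% of all genes either way. Of 10 Adam genes 3 were higher and 3 lower, and 1 and 3 in the Piezo1 fl/fl library. Of the other metalloproteinases 0 of 4 were higher and 1 lower in the control library, and 2 of 3 were higher and 0 lower in the Piezo1 fl/fl library. Between the libraries in Tnn-led cells, none of 11 Adamts genes, 4 of 9 Adam genes (1 higher, 3 lower), 2 of 14 activation and clearance genes (both higher) and 2 of 3 other metalloproteinases (both higher) passed 1.5-fold, beside 18.3% of all genes. These are small lists, and their counts are descriptions.

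The genes whose levels over the 8 shared types were most like those of each protease or inhibitor were ranked by Pearson's r of log2(CPM + 10), among 10650 genes. For Mmp13 they were Tnn (r = 0.984 in control and 0.994 in Piezo1 fl/fl types), Podnl1 and Sp7, the last a transcription factor of osteoblasts. For Mmp2 they were Creb3l1 (0.985 and 0.993), Col1a1 and Col5a2, and for Mmp14 Pofut2 (0.930 and 0.936), Fap and Kremen1. For Mmp3 they were Aox1 (0.955 and 0.938), 1700019D03Rik and Lrrn4cl, and for Mmp23 Snx7 (0.949 and 0.953), Ackr4 and Col16a1. For Timp1 they were Chsy3 (0.960 and 0.942), Slc35a2 and Meis1, and for Timp2 Rrbp1 (0.98 and 0.956), Nupr1 and Pdia4. For Timp3 they were Tmem47 (0.955 and 0.967), Synpo and Apbb2, and for Timp4 Esam (0.992 and 0.995), an adhesion molecule of endothelial cells, Tcf15 and Hotairm1. Mmp11, with 339 control UMIs, was below the limit for this ranking. The 8 points of each correlation share a library and its free RNA, so r is a description only. Tnn and Sp7 are also among the markers that named the Tnn-led cells, and the osteoblast-like group was not among the 8 types. In the finer control clusters Tnn was at 8840 CPM beside Mmp13 at 1606 and at 2916 beside 3800. In those of the Piezo1 fl/fl library it was at 5092 beside 5839 and at 1325 beside 1002.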

How the data were processed

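BD Rhapsody whole-transcriptome libraries of sorted periosteal cells were analysed, 1 per genotype. The authors deposited whole-number UMI counts per gene and barcode, and the submitters' processing notes name fastp, UMI-tools, STAR and Seurat 4.0.3. The genome build, annotation, strand setting and options of the alignment were not given in the sources used here.

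From the counts, barcodes were kept that had 1000 to 5000 genes and a mitochondrial share below 25%, after the study's methods, and doublets called by Scrublet in scanpy 1.11.5 (expected rate 0.05) were removed, 46 of 5551 scored control barcodes and 67 of 6784 Piezo1 fl/fl ones. Each library was clustered alone in Seurat 5.3.0 (R 4.3.3, Matrix 1.6.5) on 2000 variable features of genes seen in at least 10 cells, with 20 of 30 principal components, resolution 0.4 and seed 0, and the 10 genes and the protease lists were kept out. A cluster took the name of the closest class of fixed markers where at least 3 of them were detected (in at least 10% of its cells and 2-fold above the median cluster), thresholds set after the clusters were seen. Levels are UMIs summed per type over the type total. Intervals are exact at 95% and cover counting error only, not variation between animals. A count of 0 was read as up to 3 counts. Genes with at least 20 UMIs in a pair were compared, with 0.5 UMIs added to both counts, against a fold of 2 between types and 1.5 between libraries. Shares of cells were taken after thinning each cell to 2500 UMIs, leaving out shallower cells. Ratios and intervals were tested on simulated data. These were independent Poisson counts, the model that the intervals assume, so the test does not cover UMIs concentrated in few cells, as for Mmp13. Python 3.11.15, NumPy 2.4.6, SciPy 1.17.1, pandas 2.3.3 and matplotlib 3.10.9 were used.

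The members, lists and comparisons were chosen with earlier results of these data known. Genes named beside the 10 are other metalloproteinases with at least 100 control UMIs, the 4 genes of each other list with the largest fold of the highest type over the median type, and the 3 genes most alike in level, ranked by the lower of both correlations, for genes with at least 500 UMIs. Types of fewer than 50 cells were left out of the ranking of types. Immediate early genes were given as a sum. The counts between types for the activation and clearance genes are not reported here. Of 31253 gene identifiers, 31184 were found in GENCODE vM21. The cell filters, doublets, resolution, components, features, joint clustering, marker-based typing, weighting, totals, thinning and count minimum were varied. Where an alternative formed new clusters, each took the type that most of its cells had in the main clustering.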

Additional observations from a re-analysis of the deposited data

Results flagged for a closer look

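For 3 genes the libraries differed by at least 1.5-fold in opposite directions in different cell types, with counting intervals on 1 side of 0 in each direction. Timp3 was past 1.5-fold both ways too, but the interval of its only upward value, in lining-like cells, included 0. In each case the difference was not tested, because there was 1 library per genotype. For Mmp3 the log2 of Piezo1 fl/fl over control was 3.51 in Tnn-led cells and -1.46 in lining-like cells, a gap of 4.96, on 22 against 3 UMIs in Tnn-led cells and on 20 control UMIs in 3 lining-like cells. These log2 values went within the fold in 1 alternative each, to 0.56 and -0.54. Both calls also fall below the alternative minimum of 100 UMIs. Mmp3 was not among the 2 genes past the fold in Tnn-led cells with doublets kept or after thinning. Of its 22 Piezo1 fl/fl UMIs there, 15 were in 5 cells. That level, 6.44 CPM, did not differ beyond counting error from endothelial-like cells of that library, at 3.48 CPM. For Mmp13 the log2 ratio was 2.97 in lining-like cells and -2.16 in Egfl6-led cells, a gap of 5.14. Both of these values turned direction under other ways of setting the cell types. The Piezo1 fl/fl level behind the Egfl6-led value, 27.8 CPM, did not differ beyond counting error from that of endothelial-like cells, though fibroblast-like cells were lower, at 12.91 CPM. For Mmp14 it was 0.97 in endothelial-like cells and -1.57 in macrophage-like cells, a gap of 2.54, and the macrophage-like value went within the fold in 2 alternatives (log2 -0.13 and -0.11).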

How the results depend on the processing

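No paired analysis was possible because each genotype was 1 library. Of 1426 alternative values of 118 log2 ratios, 1184 stayed within the counting interval of the value reported, 226 moved and 16 turned direction. Of 31 calls between libraries 11 stayed past the fold at all alternative log2 values and 20 did not. Of 19 between types 14 did and 5 did not. These counts leave out the alternative minimum of 100 UMIs. Calls counted as staying but below it are Timp4 in Egfl6-led cells (8 and 16 UMIs) and endothelial-like Mmp13 (18 and 6) and Mmp14 (51 and 29). The same holds for Mmp13 endothelial-like over mural-like in the Piezo1 fl/fl library (18 UMIs in each type). The cause of the moves was not tested. Leaving out the 50 shared barcodes, counting control osteoblast-like cells with the Tnn-led cells and summing proteases without Mmp13 were chosen after seeing the data.

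Tnn-led over Egfl6-led control Mmp13 (log2 3.98) moved to 4.15 with 500 to 6000 genes, 4.23 under 10% mitochondrial UMIs, 4.18 with doublets kept, 4.19 at resolution 0.8, 4.82 with 30 components, 4.27 with joint clustering, 6.41 with types set cell by cell, 4.18 by per-cell means and 4.24 after thinning. Piezo1 fl/fl over control Mmp13 in Tnn-led cells (1.21) moved in the same order from the mitochondrial limit on to 1.003, 1.36, 0.989, 1.245, 1.14, 1.335, 0.835 and 0.865, and to 0.999 with osteoblast-like cells counted in. Timp1 there (1.37) moved to 1.14 under the mitochondrial limit, 1.51 with doublets kept, 1.16 at resolution 0.8, 1.53 with joint clustering, 1.24 by per-cell means, 1.235 after thinning and 1.16 with osteoblast-like cells counted in. The 5 genes past the fold in that comparison became 2 with doublets kept, joint clustering or thinning, and 3 with types set cell by cell or at least 100 UMIs.

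The direction turned for Mmp13 between libraries in Egfl6-led cells (0.735 with doublets kept, 0.221 with joint clustering, 0.149 cell by cell), fibroblast-like cells (0.360 with all variable features, 0.167 cell by cell) and lining-like cells (-3.02, -0.507 and -2.02 with all features, joint clustering and cell by cell). It also turned for Mmp13 fibroblast-like over Egfl6-led in the Piezo1 fl/fl library (0.086 with all features), Timp3 in lining-like cells (-1.59 with all features, -0.543 cell by cell, -0.095 by per-cell means, -1.13 after thinning), Mmp3 in tendon-like cells (-0.338 with joint clustering, -0.773 cell by cell) and Mmp14 there (-0.005 cell by cell). UMIs were few, and values imprecise, for Mmp3 in Tnn-led cells, Mmp11 throughout and Timp4 outside vascular cells.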

Other observations

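Reck, a membrane-anchored inhibitor of metalloproteinases, and Mmp8, the neutrophil collagenase, fell outside the rule for named genes and were picked after their values were seen. Reck was highest in Egfl6-led cells of both libraries, at 301 and 291 CPM. Mmp8 had 83 UMIs in control cells and was at 1048 CPM in the blood-like cells of the Piezo1 fl/fl library.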
